A study of Rattus norvegicus with 119 samples.

Results

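Ldaf1 and Lyrm1 are protein-coding genes that lie close together on rat chromosome 1, and 1 probe set measured each of them. They were taken as the probe sets whose only gene symbol was Ldaf1 or Lyrm1, which gave 2 of the 14506 genes named by a single symbol and 2 of the 29214 probe sets on the array. The genes were chosen by measured values, namely their higher levels in lead-exposed Long Evans rats than in Long Evans controls. Their values in those comparisons are therefore given below as a description, and calls counted there are not a test. The comparisons that did not choose them were tested, namely those in Fischer and Sprague Dawley rats, between doses, periods and sexes, and within groups of animals. In Long Evans the dose, period and sex comparisons used arrays that also entered the choice, so their p-values may not be independent of it.

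Hippocampal RNA of 40 Long Evans, 40 Fischer and 39 Sprague Dawley rats was hybridised to Affymetrix Rat Gene 1.0 ST arrays in a single colour, with 1 array per animal. Rats of both sexes were exposed to lead acetate in chow at 250 or 750 ppm, and control rats were given the same chow without lead. Perinatal exposure covered the dams from 10 days before breeding until weaning of the pups, and postnatal exposure ran from birth to postnatal day 45. Exposed and control animals alike were killed on postnatal day 55, after a time on control chow, so every exposed group was measured after its exposure had ended. Each strain and sex had a perinatal 250 ppm, a perinatal 750 ppm, a postnatal 250 ppm and a postnatal 750 ppm group and 1 control group. The 30 groups held 4 animals each, except for 3 Sprague Dawley male controls. The labels name no litters, so animals of a group may share a dam, and p-values then measure the spread between these animals only. No genetic modification is given in the labels, and the strains are named without a substrain.

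Ldaf1, also known as promethin or Tmem159, encodes a small membrane protein of the endoplasmic reticulum that partners with seipin (Bscl2) at the sites where lipid droplets form. Lipid droplets store triglycerides and sterol esters inside cells, and in brain they are best known from glia. Lyrm1 belongs to the LYR-motif proteins, a family of small proteins of which several help to assemble iron-sulfur clusters and respiratory complexes in mitochondria. Lead is a neurotoxic metal whose effects on the developing hippocampus are studied for their links to learning and memory.

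In the GRCr8 annotation Lyrm1 came first, then Dnah3 (an axonemal dynein heavy chain) and then Ldaf1 along the chromosome, and both Lyrm1 and Ldaf1 are read from the plus strand. Dnah3 had no probe set with a single symbol. The regions around the start of both genes are shown because the genes lie close together and were chosen for a shared pattern. Each runs from 250 bases before to 50 bases after the start given by RefSeq in GRCr8, at chr1:183915669-183915968 for Ldaf1 and chr1:183716288-183716587 for Lyrm1. Capitals mark GC boxes (GGGCGG on either strand) and the core of the metal response element (TGCACNC or TGCGCNC on either strand), which the metal-sensing factor MTF1 is known to bind in metallothionein genes.
Ldaf1: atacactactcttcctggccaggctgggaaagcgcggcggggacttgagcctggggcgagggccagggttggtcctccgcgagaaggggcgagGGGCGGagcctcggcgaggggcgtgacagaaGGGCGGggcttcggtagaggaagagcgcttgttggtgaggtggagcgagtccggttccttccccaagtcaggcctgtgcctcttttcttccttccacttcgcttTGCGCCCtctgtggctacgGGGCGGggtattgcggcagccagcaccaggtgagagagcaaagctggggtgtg
Lyrm1: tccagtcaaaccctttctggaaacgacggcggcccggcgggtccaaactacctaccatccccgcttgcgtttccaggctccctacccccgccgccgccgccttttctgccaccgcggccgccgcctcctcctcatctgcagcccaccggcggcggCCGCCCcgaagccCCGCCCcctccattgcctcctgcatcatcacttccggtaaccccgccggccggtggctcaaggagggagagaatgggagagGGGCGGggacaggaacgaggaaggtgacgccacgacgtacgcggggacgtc
The Ldaf1 region had 65.3% G and C and 21 CpG dinucleotides, and the Lyrm1 region had 69.3% and 33, against a median of 51.7% G and C over 33469 promoters of the same length. Each region held 3 GC boxes, a motif present in 33.1% of all promoters. The metal response element core was found 1 time in the Ldaf1 region and not in the Lyrm1 region, and 24.2% of all promoters held it. No match was found in either region for the CCAAT box (CCAAT, in 37.5% of promoters), the TATA box (TATAAA, 14.2%), the E-box (CACGTG, 6.42%), the cAMP response element (TGACGTCA, 1.83%) or the antioxidant response element core (TGACNNNGC, 12.1%), on either strand. None of these motifs overlapped with another in the capitals shown.

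The values used here are log2 intensities as the authors deposited them. Array medians lay between 7.36 and 7.57, no pair of arrays was identical, and correlations of array pairs ranged from 0.979 to 0.997. Of 7 hippocampal principal neuron markers, 6 had mean levels between the 81.1 and 97.5 percentiles of all probe sets, and Tdo2, a dentate granule cell marker, was at percentile 7.91. The mean levels of Ldaf1 and Lyrm1 were at percentiles 75.9 and 79.3 of all probe sets. In 8 arrays the sex-linked genes Eif2s3, Ddx3x and Pbdc1 pointed to the opposite sex from the label: 1 Long Evans male control, 2 Long Evans female controls and 5 Sprague Dawley arrays, of which 1 was a control. The labels were kept, also for the sex differences, and the mean lead differences of Ldaf1 in Long Evans and Sprague Dawley are given without these arrays as well. Each group was also split here by label number into a lower and an upper set, a division that the labels themselves do not name. A set held 2 animals of a group, except that 1 Sprague Dawley male control was in the lower set. Between these sets, 0.0993% of probe sets differed in Long Evans, 60.9% in Fischer and 18.9% in Sprague Dawley (limma, adjusted p under 0.05).

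Ldaf1 was lowest in Long Evans controls and higher in most exposed Long Evans animals. The male perinatal 250 ppm animals had Ldaf1 levels of 9.48, 9.73, 9.38 and 9.42 (log2). The male perinatal 750 ppm animals had 8.96, 9.03, 9.06 and 9.32, the male postnatal 250 ppm animals 9.28, 9.19, 9.40 and 9.21, and the male postnatal 750 ppm animals 9.22, 9.68, 9.50 and 9.28. The male controls had 8.62, 8.28, 8.63 and 8.41. All 16 exposed males were thus above the highest male control, and the perinatal 250 ppm group was the highest of the 4 exposed male groups by its mean.

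Among Long Evans females, Ldaf1 in the perinatal 250 ppm group was at 9.07, 8.59, 8.64 and 8.67. The perinatal 750 ppm females had 8.65, 9.25, 9.22 and 9.20, the postnatal 250 ppm females 9.15, 9.26, 9.47 and 9.07, and the postnatal 750 ppm females 9.11, 9.28, 9.33 and 9.16. The female controls had 8.59, 8.36, 8.56 and 8.43. The perinatal 250 ppm females overlapped with the female controls, as 1 of the 4 lay at the level of the highest control, and 1 perinatal 750 ppm female lay next to them. Over both sexes 31 of 32 exposed animals were above the highest control of their sex, and no exposed animal was below it in 7 of the 8 groups. These counts restate the choice of the gene, and how many of all probe sets had such a separation was not counted.

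**Figure D1:**
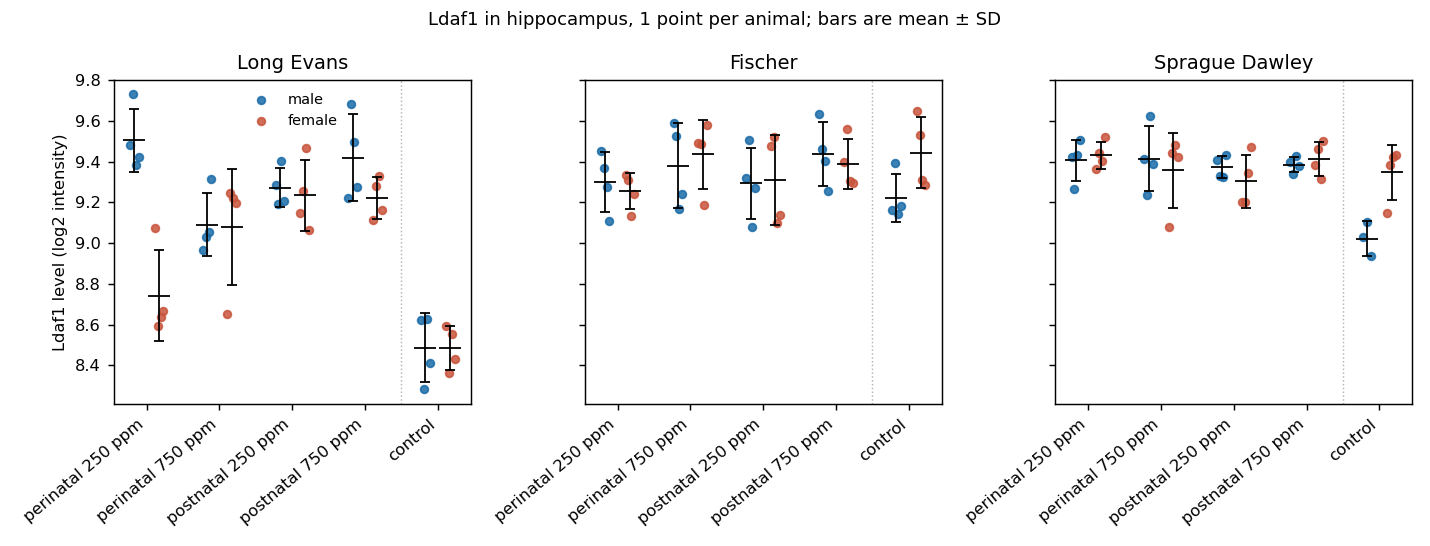
Ldaf1 level (log2 intensity) of each animal by exposure group, with males and females side by side and 1 panel per strain; horizontal lines and bars are the mean and SD of a group (n = 4, or 3 in Sprague Dawley male controls). Long Evans controls lie between 8.28 and 8.63, below nearly all exposed Long Evans animals, while the Fischer groups overlap and the 3 Sprague Dawley male controls lie between 8.93 and 9.11.

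The mean difference of Ldaf1 from control in Long Evans males was 1.02 at perinatal 250 ppm (2.02-fold), 0.60 at perinatal 750 ppm, 0.79 at postnatal 250 ppm and 0.93 at postnatal 750 ppm (log2, SE 0.12 each). In females it was 0.26, 0.59, 0.75 and 0.74 in the same order of groups, again with an SE of 0.12. The 4 contrasts of a sex share their controls. Over the 8 exposed groups the mean level was 9.20, against 8.49 in controls, a difference of 0.71 ± 0.07 (1.64-fold). Without the 3 Long Evans controls that went against their sex label, it was 0.74. In the fit over all probe sets Ldaf1 was past the threshold in 7 of the 8 contrasts, in which 0.0103% to 0.133% of all probe sets were called (0.0411%, 0.0548%, 0.024% and 0.0479% in the 4 male groups and 0.0103%, 0.133%, 0.0171% and 0.0103% in the 4 female groups, each in the order of groups above). That count restates the choice of the gene.

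Lyrm1 had the same direction with a smaller size. Its levels were 9.76, 9.68, 9.63 and 9.67 in perinatal 250 ppm males, 9.54, 9.51, 9.65 and 9.58 in perinatal 750 ppm males, 9.47, 9.62, 9.60 and 9.43 in postnatal 250 ppm males and 9.61, 9.68, 9.80 and 9.52 in postnatal 750 ppm males. The Long Evans male controls had Lyrm1 levels of 9.45, 9.11, 9.28 and 9.22. Only the postnatal 250 ppm males reached into the range of these controls.
Among females, Lyrm1 was at 9.50, 9.35, 9.36 and 9.24 after perinatal 250 ppm, at 9.36, 9.58, 9.59 and 9.70 after perinatal 750 ppm, at 9.57, 9.61, 9.54 and 9.55 after postnatal 250 ppm and at 9.58, 9.57, 9.54 and 9.42 after postnatal 750 ppm. The female controls had 9.29, 9.32, 9.38 and 9.26. Perinatal 250 ppm females overlapped with these controls, and so did 1 perinatal 750 ppm female.

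All animals of a group were above the highest control of their sex in 5 of the 8 Long Evans groups for Lyrm1, and 27 of 32 exposed animals were. These counts too were not set against those of all probe sets. The differences from control were 0.42, 0.31, 0.26 and 0.39 in males and 0.05, 0.25, 0.26 and 0.22 in females, in the order used for Ldaf1 (log2, SE 0.07 each). Over the 8 groups Lyrm1 averaged 9.56 in exposed and 9.29 in control animals, a difference of 0.27 ± 0.04 (1.21-fold). It was past the threshold in 2 of the 8 contrasts, again a description of the choice. These were male perinatal 250 ppm and male postnatal 750 ppm, where 0.0411% and 0.0479% of all probe sets were called. Over the 8 contrasts that share ran from 0.0103% to 0.133%. In every one of the 8 groups the Lyrm1 difference was smaller than that of Ldaf1 on the log2 scale, and for both genes the perinatal 250 ppm males were the highest and the perinatal 250 ppm females the lowest of the exposed groups by difference.

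**Figure D2:**
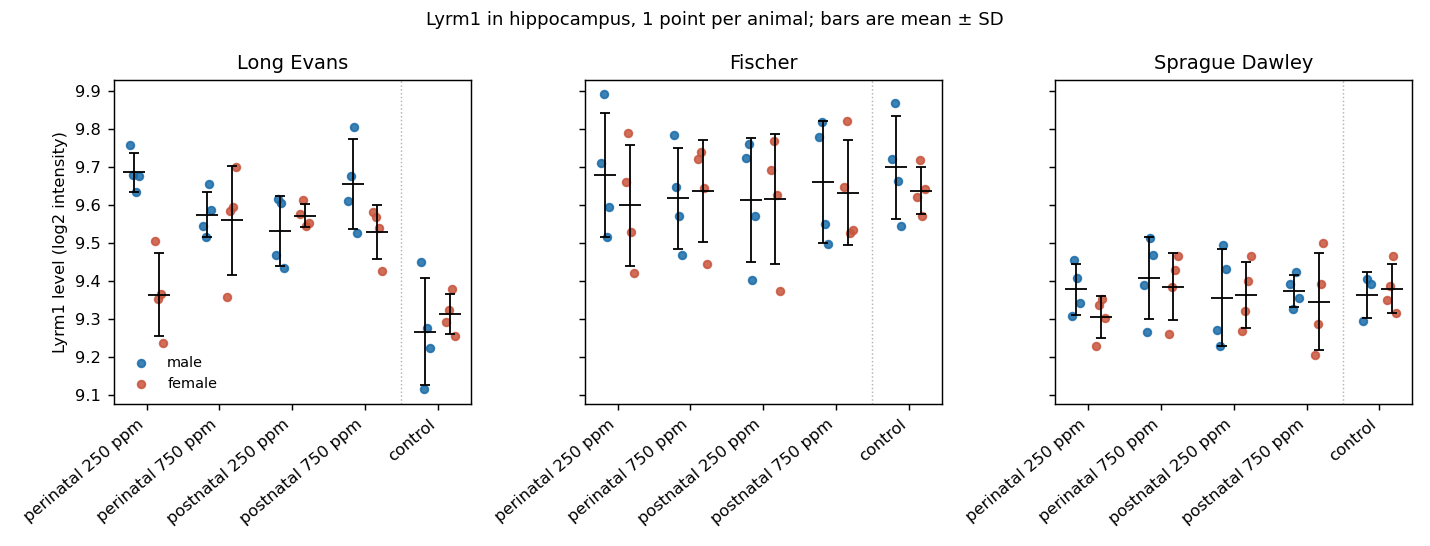
Lyrm1 level (log2 intensity) of each animal by exposure group, with males and females side by side, 1 panel per strain, and lines and bars for the mean and SD of a group. In Long Evans the controls lie between 9.11 and 9.45 and most exposed animals above them, and in Fischer and Sprague Dawley exposed and control animals overlap in every group.

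The Long Evans Ldaf1 values fell into separate sets. Across the 40 arrays the widest step in Ldaf1 lay between 8.67 and 8.96, with 12 arrays below it and 28 above it. Below it were all 8 controls, 3 of the 4 perinatal 250 ppm females and 1 of the 4 perinatal 750 ppm females. Lyrm1 on the same arrays ran from 9.11 to 9.45 below the step and from 9.42 to 9.80 above it. Among steps with at least 6 arrays on each side, the widest was 0.30 in Long Evans and 0.05 in each of the other strains. The Long Evans controls and the perinatal 750 ppm females had successive label numbers in a single run, and the other exposed Long Evans groups had label numbers in 6 other runs. Within that run, 3 of the 4 exposed females had Ldaf1 levels of 9.20 to 9.25 and the other had 8.65, against 8.28 to 8.63 in the 8 controls.

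Lists of cell type markers were set beside the genes in Long Evans, and only the myelin list had probe sets called. Of 10 probe sets of myelin and oligodendrocyte genes, 5 were called higher in the mean of the 8 lead contrasts, among them the myelin glycoprotein genes Mog (0.26) and Mag (0.21), the tight junction gene Cldn11 (0.21) and the lipid hydroxylase gene Fa2h (0.25), with 0.212% of all probe sets called. The mean of the myelin list ran from 11.25 to 11.68 in exposed and from 11.23 to 11.33 in control arrays. Within Long Evans groups the slopes of the 10 myelin probe sets on Ldaf1 lay between -0.21 and 0.14. None of these slopes was called (limma), where 0% of all probe sets were called. Choroid plexus genes had a median difference of -0.37, with 0 of 11 called (0 at an unadjusted p under 0.05), and list means of 6.81 to 10.68 in exposed and 6.65 to 10.40 in control arrays. The meningeal list had a median of 0.20 with 0 of 7 called, and 1 at an unadjusted p under 0.05, as were 2177 of all 29214 probe sets. In red blood cell genes 0 of 3 were called, with a median of 0.05 and 0 at an unadjusted p under 0.05. Adipocyte genes, a source of lipid droplet transcripts in other tissue, had 0 of 5 called (0 unadjusted), a list mean of 6.01 to 6.53 in exposed and 6.08 to 6.60 in control arrays, and levels between percentiles 17.5 and 36.1. When the choroid plexus score was added to the model, the mean lead difference was 0.71 for Ldaf1 and 0.27 for Lyrm1. The part of the myelin genes and of the runs of label numbers in the Ldaf1 and Lyrm1 differences was not tested. In dissected tissue, more cells of a type and more RNA per cell cannot be told apart.

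In Fischer rats no difference between exposed and control animals was detectable in Ldaf1 or Lyrm1. Ldaf1 lay between 9.08 and 9.64 in the 32 exposed animals (median 9.33) and between 9.14 and 9.65 in the 8 controls (median 9.30). Lyrm1 lay between 9.37 and 9.89 in exposed animals (median 9.64) and between 9.54 and 9.87 in controls (median 9.65). Exposed and control ranges overlapped in all 8 groups for both genes. The mean lead difference was 0.02 ± 0.06 for Ldaf1 and -0.04 ± 0.06 for Lyrm1 (limma, adjusted p = 1 each), with intervals of -0.11 to 0.15 and -0.15 to 0.08. Of the 8 single contrasts, 0 were called for either gene (0 at an unadjusted p under 0.05), where 0% to 0.0137% of all probe sets were called.

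In Sprague Dawley rats no single lead contrast of Ldaf1 was called, although the 16 exposed males lay above the 3 male controls. The males had Ldaf1 levels of 9.42, 9.27, 9.43 and 9.51 at perinatal 250 ppm, 9.41, 9.24, 9.63 and 9.39 at perinatal 750 ppm, 9.41, 9.33, 9.33 and 9.43 at postnatal 250 ppm and 9.40, 9.34, 9.43 and 9.38 at postnatal 750 ppm. The 3 male controls had 9.03, 9.11 and 8.93. The lowest of the 16 exposed males, at 9.24, was thus above the highest of these 3 controls. How many of all probe sets had such a separation was not counted, so its rarity is not known here. Male perinatal 750 ppm replicate 4 (9.39) and male postnatal 750 ppm replicate 2 (9.34) went against their sex label, as did female control replicate 2 (9.38). The level of that control lay within the range of the exposed males, so the separation holds only for the sex labels as given. Female exposed animals had 9.36 to 9.52, 9.08 to 9.48, 9.20 to 9.47 and 9.31 to 9.50 in the same order of groups, and the 4 female controls 9.15, 9.38, 9.42 and 9.43, so that every exposed female group overlapped with its controls. The differences from control were 0.39, 0.39, 0.35 and 0.36 in males (SE 0.09, limma adjusted p = 0.163, 0.274, 0.665 and 0.407) and 0.09, 0.01, -0.04 and 0.07 in females (SE 0.08).

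None of these 8 Sprague Dawley contrasts was called for Ldaf1, where 0% to 0.0274% of all probe sets were called. The 4 male contrasts had an unadjusted p under 0.05 (limma), as did 769, 974, 883 and 1227 of the 29214 probe sets in the same order of groups. The mean lead difference of Ldaf1 was 0.20 ± 0.05 (limma, adjusted p = 0.453, and 0.106 to 1 over the other settings), and 0.0171% of probe sets were called in that contrast. Its female minus male difference was -0.34 ± 0.10 (limma, adjusted p = 1), so a difference between the sexes did not pass the test over all probe sets. The male values rest on 3 controls, and among controls Ldaf1 was at a mean of 9.35 in females and 9.02 in males (0.32 ± 0.09, adjusted p = 0.999). Without the 5 arrays against their sex label the mean lead difference of Ldaf1 was 0.20. In Lyrm1 every exposed group overlapped with its controls, with 9.20 to 9.51 in exposed and 9.29 to 9.46 in control animals, a mean difference of -0.01 ± 0.04 (limma, adjusted p = 0.999) and 0 of 8 contrasts called (0 at an unadjusted p under 0.05). The Sprague Dawley minus Fischer difference of the mean lead effect was 0.18 ± 0.09 for Ldaf1 and 0.03 ± 0.07 for Lyrm1 (limma, adjusted p = 1 each).

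**Figure D3:**
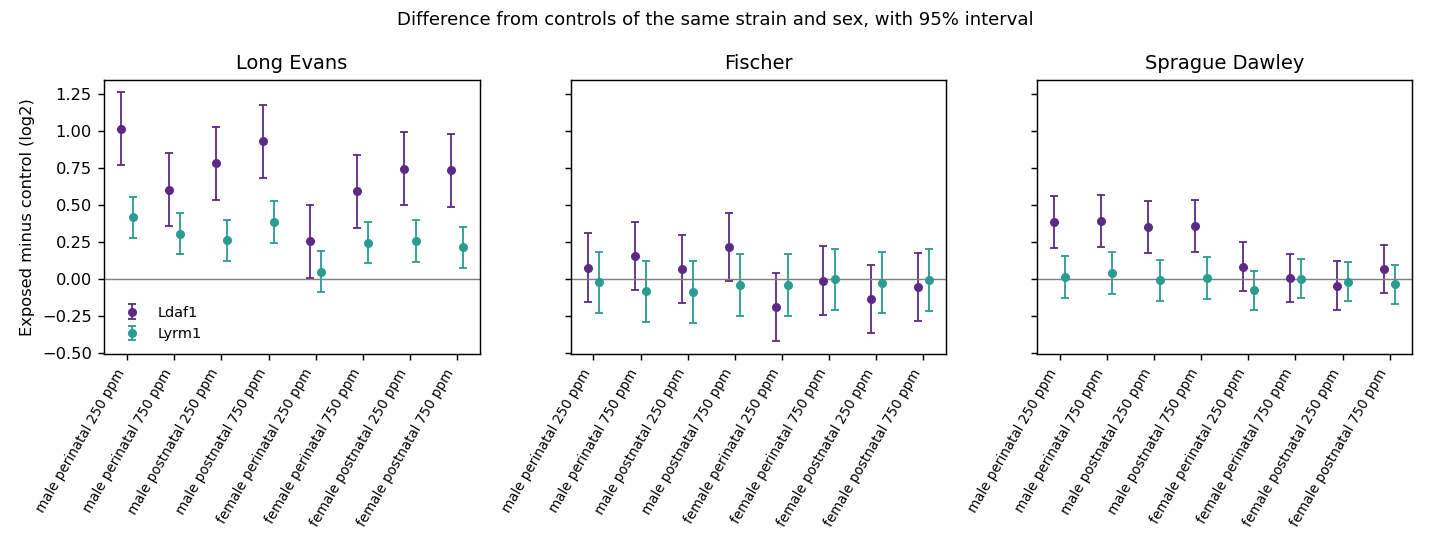
Exposed minus control difference (log2) of Ldaf1 and Lyrm1 for the 8 exposed groups of every strain, with 95% intervals from the fit of that strain. In Long Evans every estimate is above 0, in Sprague Dawley the 4 male Ldaf1 estimates lie between 0.35 and 0.39, and in Fischer all intervals include 0.

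Dose and period were compared among exposed animals only, so that no control entered. The exposed Long Evans arrays had, however, also entered the contrasts that chose the genes. The 750 ppm minus 250 ppm difference of Ldaf1 was 0.01 ± 0.06 in Long Evans (means 9.20 and 9.19), 0.12 ± 0.06 in Fischer (9.41 and 9.29) and 0.01 ± 0.04 in Sprague Dawley (limma, adjusted p = 0.985, 0.879 and 1). For Lyrm1 it was 0.04 ± 0.03, 0.01 ± 0.05 and 0.03 ± 0.03 in the same order of strains (limma, adjusted p = 0.874, 1 and 1). No difference between the doses thus passed the threshold in either gene. The Fischer Ldaf1 difference had an unadjusted p under 0.05 (limma), as did 1610 of 29214 probe sets. The share of all probe sets called for dose was 0.0548% for Long Evans, 0.0719% for Fischer and 0.00342% for Sprague Dawley.
The postnatal minus perinatal difference of Ldaf1 was 0.18 ± 0.06 in Long Evans (9.29 and 9.10, limma adjusted p = 0.264), 0.01 ± 0.06 in Fischer and -0.03 ± 0.04 in Sprague Dawley (adjusted p = 1 each). That of Lyrm1 lay between -0.01 and 0.03 in the 3 strains (adjusted p = 0.781, 1 and 1 for Long Evans, Fischer and Sprague Dawley). Of all probe sets, 0.065%, 0.00342% and 0.0411% were called for period, strains in that order. The Long Evans Ldaf1 period difference had an unadjusted p under 0.05 (limma), as did 3532 of 29214 probe sets.

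Within single Long Evans groups the dose differences of Ldaf1 ran in both directions. These contrasts within groups were chosen after the data were seen, and their arrays also entered the choice of the genes. The 750 ppm minus 250 ppm difference was -0.41 ± 0.12 in perinatal males and 0.34 ± 0.12 in perinatal females (limma, adjusted p = 0.508 and 0.462), and 0.15 and -0.01 in postnatal males and females. Lyrm1 had -0.11 ± 0.07 in perinatal males and 0.19 ± 0.07 in perinatal females (adjusted p = 1 and 0.451). None of these passed the threshold, where 0.0308% and 0.00685% (perinatal and postnatal males) and 0.0616% and 0.0137% (perinatal and postnatal females) of all probe sets were called. At an unadjusted p under 0.05 (limma) were 2 of the 4 for Ldaf1 and 1 of the 4 for Lyrm1. Between 1072 and 2345 of 29214 probe sets were so in these contrasts. The postnatal minus perinatal difference of Ldaf1 was 0.49 ± 0.12 in 250 ppm females and -0.23 ± 0.12 in 250 ppm males (adjusted p = 0.225 and 0.788), with 0.0137% and 0.00685% of all probe sets called. At 750 ppm it was 0.14 in females and 0.33 in males (adjusted p = 0.999 and 0.177), with 0.0616% and 0.13% called. In Fischer rats the 4 dose differences of Ldaf1 lay between 0.08 and 0.18 and none was called, where 0% to 0.0205% of all probe sets were called.

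The sex difference of Ldaf1 in Long Evans was widest in a single treatment. Over the 5 treatments Ldaf1 was at a mean of 8.95 in females and 9.15 in males, a difference of -0.20 ± 0.05 (limma, adjusted p = 0.102), and Lyrm1 at 9.47 and 9.54 (-0.08 ± 0.03, adjusted p = 0.222), with 0.0856% of all probe sets called. In 1 fit of all arrays and with array weights the adjusted p of Ldaf1 was 0.0439 and 0.0458, and over all settings it ran from 0.0439 to 0.735. Within treatments, the sex difference of Ldaf1 was -0.76 ± 0.12 at perinatal 250 ppm (8.74 in females, 9.50 in males, limma adjusted p = 0.00314), where 0.0719% of probe sets were called. It was -0.01, -0.04 and -0.20 at perinatal 750, postnatal 250 and postnatal 750 ppm, and below 0.01 in size in controls, none of them called. These controls included male replicate 4 and female replicates 1 and 3, which went against their sex label. The 4 males of the perinatal 250 ppm group were all above the 4 females. Within the lower and the upper label numbers alone this difference was -0.77 and -0.75 (adjusted p = 0.503 and 0.24). The males and the females of this treatment had label numbers in different runs, so run and sex cannot be told apart here. This treatment was singled out after its values were seen, and its arrays also entered the contrasts on which the genes were chosen.

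Lyrm1 at perinatal 250 ppm was lower in Long Evans females than in males by a difference of -0.32 ± 0.07 (9.36 in females, 9.68 in males, limma adjusted p = 0.0575). Its adjusted p ran from 0.0188 to 0.651 over the other settings and was under 0.05 with 4 of them, among them a further quantile normalization (0.0232) and a filter on dim probe sets at the 40th percentile (0.0306). As for Ldaf1, this treatment was singled out after its values were seen, and its arrays entered the contrasts that chose the genes. The p-values of this sex difference are therefore a description. The difference in lead effect between the sexes at perinatal 250 ppm was -0.76 ± 0.17 for Ldaf1 and -0.37 ± 0.10 for Lyrm1, given as a description because it uses the contrasts that chose the genes. Without replicate 1 of these females, which lay apart from the other 3 in Ldaf1, the sex difference of Lyrm1 was -0.37 (adjusted p = 0.0428). In Fischer and Sprague Dawley rats the mean sex differences were 0.04 and 0.05 for Ldaf1 and -0.03 and -0.02 for Lyrm1, and none was called (limma, adjusted p = 1 and 0.637 for Ldaf1, 1 and 0.815 for Lyrm1), where 0.0822% and 0.0171% of all probe sets were called.

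Between strains the genes had different patterns. Exposed Sprague Dawley and Fischer animals had mean Ldaf1 levels of 9.39 and 9.35 (difference 0.04 ± 0.04, limma adjusted p = 0.503), and controls had 9.18 and 9.33 (-0.15 ± 0.08, adjusted p = 0.252). Lyrm1 was lower in Sprague Dawley than in Fischer, at 9.36 against 9.63 in exposed animals (-0.27 ± 0.03, adjusted p = 1.64e-13) and 9.37 against 9.67 in controls (-0.30 ± 0.06, adjusted p = 0.000138). Of all probe sets, 35.2% were called in the first and 10.5% in the second of these strain contrasts, so a called strain difference was common.
Long Evans levels are given as a description. Exposed Long Evans animals differed from exposed Fischer animals by -0.16 for Ldaf1 and -0.07 for Lyrm1, and Long Evans controls from Fischer controls by -0.85 and -0.38. Against Sprague Dawley, exposed Long Evans animals differed by -0.19 for Ldaf1 and 0.19 for Lyrm1, and Long Evans controls by -0.70 and -0.08. In Ldaf1 it was thus the Long Evans controls that stood farthest from the other strains, and exposed Long Evans animals were nearer to them.

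In the order of the 30 group means, Long Evans perinatal 250 ppm males had the highest Ldaf1 (9.50 ± 0.16, SD) and Long Evans female and male controls the lowest (8.49 ± 0.11 and 8.49 ± 0.17). The steps between neighbours in that order were within the larger SD of the 2 groups for 27 of the 29 steps. The other steps lay between Sprague Dawley male controls (9.02 ± 0.09) and Long Evans perinatal 250 ppm females (8.74 ± 0.22), and between those females and the Long Evans male controls. For Lyrm1 the highest group was the Fischer male controls (9.70 ± 0.13) and the lowest the Long Evans male controls (9.27 ± 0.14), and 28 of 29 steps were within the larger SD. The exception separated Long Evans postnatal 750 ppm females (9.53 ± 0.07) from Sprague Dawley perinatal 750 ppm males (9.41 ± 0.11). All 10 Fischer groups and 7 of the 10 Long Evans groups were above every Sprague Dawley group in Lyrm1.
Within groups, the pooled SD of Ldaf1 was 0.178 in Long Evans, 0.163 in Fischer and 0.114 in Sprague Dawley, and that of Lyrm1 was 0.0948, 0.145 and 0.0882. The range of the 10 group means was 1.02 for Ldaf1 and 0.42 for Lyrm1 in Long Evans, 0.22 and 0.10 in Fischer and 0.41 and 0.10 in Sprague Dawley.

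The relation of Ldaf1 and Lyrm1 from array to array was taken from the deviations of each animal from its group mean, since the group means had chosen the genes. In Fischer the correlation was r = 0.62 and rho = 0.66 (n = 40, permutation tests within groups, two-sided, adjusted over 4 relations, p = 0.00076 and 0.00024). In Sprague Dawley it was r = 0.46 and rho = 0.41 (n = 39, permutation, adjusted p = 0.022 and 0.0462). Long Evans arrays were not pooled for these correlations, because Ldaf1 fell into separate sets. Among the arrays with lower Ldaf1 it was r = 0.62 and rho = 0.47 (n = 11, permutation, adjusted p = 0.195 and 0.235), and among those with higher Ldaf1 r = 0.29 and rho = 0.36 (n = 27, permutation, adjusted p = 0.251 and 0.147). In each set 1 array was alone in its group and had no deviation. Without the 2 arrays farthest from the median of Ldaf1, r was 0.64 in Fischer, 0.48 in Sprague Dawley, 0.45 in the lower and 0.33 in the higher Long Evans set.

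The relation was also computed with the sets of label numbers taken into account. When the set of label numbers was fitted as a block, r was -0.11 in Fischer (permutation p = 0.661) and 0.20 in Sprague Dawley (permutation p = 0.289). Within the lower numbers alone it was 0.30 in Fischer and 0.50 in Sprague Dawley, and within the upper numbers alone -0.40 and 0.23, none with a permutation p under 0.05 (n = 18 to 20 each). In Fischer, animals with upper label numbers differed from those with lower numbers by -0.22 in Ldaf1 and -0.21 in Lyrm1 (limma, adjusted p = 4.2e-07 and 4.37e-08). In Sprague Dawley the same difference was 0.10 in both genes (adjusted p = 0.0308 and 0.00146). In Long Evans these differences were 0.03 and -0.01 (adjusted p = 0.922 and 0.961), and the r of the higher Ldaf1 set with the block was 0.29.

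**Figure D4:**
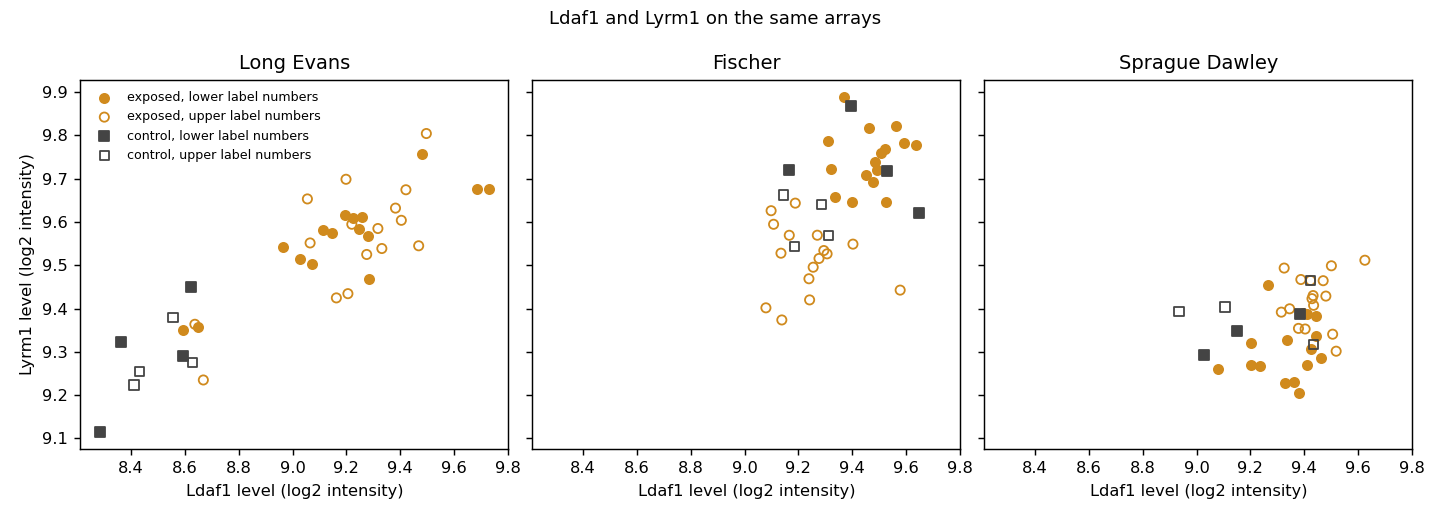
Lyrm1 level against Ldaf1 level (log2 intensity) on the same array, 1 point per animal and 1 panel per strain; filled and open symbols are lower and upper label numbers, circles exposed and squares control animals. Long Evans points form a lower set with Ldaf1 up to 8.67 and a higher set from 8.96, and in Fischer the lower label numbers lie higher in both genes.

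The same relation was then set against that of all other probe sets with Ldaf1. Unlike the correlations above, this fit took all 40 Long Evans arrays together, across the separate sets of Ldaf1 levels. The slope of Lyrm1 on Ldaf1 within groups was 0.32 ± 0.08 in Long Evans, which ranked 47 by p among 29213 probe sets (limma, adjusted p = 0.327). There 0% of all probe sets were called. In Fischer the slope was 0.55 ± 0.13 (rank 6193, adjusted p = 0.000798), in a contrast in which 50.6% of all probe sets were called, and with the label-number block it was -0.09 (adjusted p = 0.911). In Sprague Dawley it was 0.36 ± 0.14 (rank 2895, adjusted p = 0.13, 3.28% called). Without the perinatal 250 ppm and 750 ppm females that lay apart from their groups, the Long Evans slope was 0.22 and its rank 3878.

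Over all arrays of the 3 strains, the probe sets whose deviations from group means were most like those of Ldaf1 belonged to Tm9sf1 (a Golgi and endosome membrane protein gene, r = 0.66), Vkorc1 (vitamin K epoxide reductase, 0.66), Atp6v0e1 (a proton pump subunit, 0.66), Pdlim1 (a cytoskeletal adaptor, 0.66) and Slc20a2 (a phosphate transporter, 0.64). Lyrm1 followed at r = 0.57, in place 82 of all probe sets. Most like Lyrm1 were Drap1 (a transcription corepressor, 0.75), Urm1 (a ubiquitin-like modifier, 0.74), Slc39a1 (a zinc transporter, 0.73), Mrpl27 (a mitochondrial ribosomal protein, 0.73) and Atp5mc3 (an ATP synthase subunit, 0.73), with Ldaf1 in place 755. By strain, the r of Ldaf1 and Lyrm1 was 0.62 in Fischer, 0.60 in Long Evans and 0.46 in Sprague Dawley. In Long Evans this was above all genes named as most like Ldaf1 (0.32 to 0.56) or Lyrm1 (0.20 to 0.41). In Fischer and Sprague Dawley it was below all of them (0.78 to 0.89 and 0.65 to 0.79). The arrays of a strain share sets of label numbers, both Long Evans sets of Ldaf1 levels entered together, and these values are a description.

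The 6 nearest measured genes on each side of the pair were set beside it. On the Lyrm1 side these were the medium-chain acyl-CoA synthetase genes Acsm5, Acsm4 and Acsm3, the RNA acetylation adaptor gene Thumpd1, the RNA exonuclease gene Rexo5 and the neddylation regulator gene Dcun1d3. On the Ldaf1 side they were the egg coat gene Zp2, the thyroid hormone binding protein gene Crym, the transporter gene Abca15, the respiratory complex III gene Uqcrc2, and Pdzd9 and Vwa3a. In the mean of the 8 Long Evans lead contrasts, 1 of the 12, Rexo5, had an unadjusted p under 0.05 (limma), as did 2177 of all 29214 probe sets. At the adjusted threshold 0 of the 12 were called, where 0.212% of all probe sets were called. A count of 0 among 12 genes is near that share. Rexo5 was at 5.64 in exposed and 5.51 in control animals (0.13 ± 0.05, adjusted p = 0.507).
The other estimates were 0.07 for Uqcrc2, 0.05 for Abca15, 0.03 for Crym, 0.02 for Pdzd9, 0.01 for Acsm5 and -0.08 for Acsm4, and those of Thumpd1, Dcun1d3 and Vwa3a were -0.01 each. Acsm3 and Zp2 lay within 0.01 of 0. Dcun1d3, next to Lyrm1, was at 9.15 in exposed and 9.15 in control animals. In Fischer and Sprague Dawley 0 of the 12 were called (0 at an unadjusted p under 0.05), where 0% and 0.0171% of all probe sets were called, with differences of -0.04 to 0.07 and -0.06 to 0.11. Zp2, Abca15, Acsm3, Rexo5 and Pdzd9 were dim, with mean levels between percentiles 12.1 and 20.4.

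**Figure D5:**
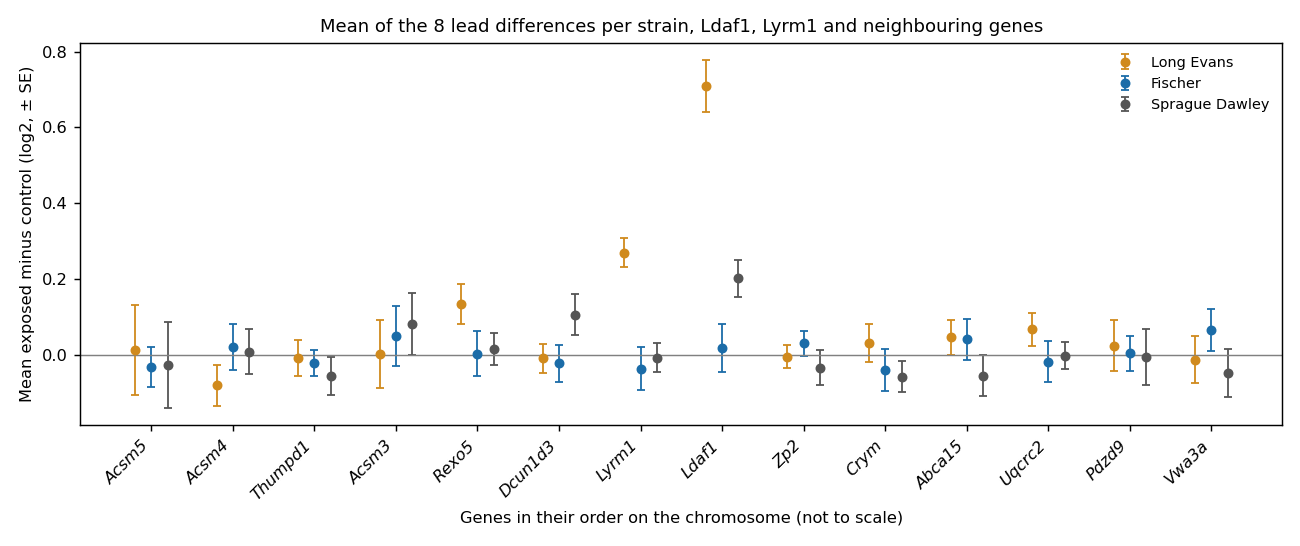
Mean of the 8 exposed minus control differences (log2, with SE) in each strain for Ldaf1, Lyrm1 and 6 genes on each side, in their order on chromosome 1 and not to scale. In Long Evans only Ldaf1 (0.71) and Lyrm1 (0.27) lie above 0.20, and Rexo5 is next at 0.13.

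Within groups, the slope on Ldaf1 was called for 5 of the 12 neighbours in Fischer (50.6% of all probe sets), 0 in Long Evans (0%) and 0 in Sprague Dawley (3.28%). The slope on Lyrm1 was called for 4 of 12 in Fischer (49.1%), 0 in Long Evans (0%) and 1 in Sprague Dawley (12.4%), where Dcun1d3 had -0.93 (limma, adjusted p = 0.00471). The shares in Fischer were near or below the share of all probe sets.

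Other genes of the same pathways were taken from lists. Of 36 lipid droplet genes, 33 were measured by 34 probe sets. In the Long Evans lead mean 0 were called by limma, where 0.212% of all probe sets were called, so that the count of 0 is near that share. At an unadjusted p under 0.05 were 6 of the 34, and 2177 of all 29214 probe sets. Of the 6, 4 were higher, while Hsd17b13 (-0.09) and Pnpla3 (-0.07) were lower. The difference between these unadjusted shares was not tested. The median difference of the list was 0.01, against 0.001 over all probe sets. The members with the smallest p were the droplet-associated dehydrogenase gene Hsd17b11 (0.11 ± 0.04, adjusted p = 0.559), the droplet ubiquitination factor gene Aup1 (0.05 ± 0.02, adjusted p = 0.56), the lipase coactivator gene Abhd5 (0.08 ± 0.04, adjusted p = 0.607) and the triglyceride synthesis gene Dgat2 (0.08 ± 0.04, adjusted p = 0.627). The seipin gene Bscl2, the partner of Ldaf1, had -0.03 ± 0.03 (adjusted p = 0.944), and the droplet coat gene Plin2 had -0.05 ± 0.05 (adjusted p = 0.91). Within Long Evans groups the slope of Bscl2 on Ldaf1 was 0.11 (adjusted p = 0.664).
In Fischer and Sprague Dawley, 0 lipid droplet probe sets were called, where 0% and 0.0171% of all probe sets were called, with medians of -0.02 and -0.01. At an unadjusted p under 0.05 were 0 and 2 of them, and 729 and 1064 of all probe sets.

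Of 15 LYR-motif genes and their partners, 11 were measured. In the Long Evans lead mean 0 were called by limma, where 0.212% of all probe sets were called, with a median of 0.02. There 1 member had an unadjusted p under 0.05, as did 2177 of all 29214 probe sets. That member was the iron-sulfur cochaperone gene Hscb (0.09 ± 0.04, adjusted p = 0.495), followed by the complex I genes Ndufa6 (0.06 ± 0.04, adjusted p = 0.798) and Ndufb9 (0.04 ± 0.03, adjusted p = 0.906) and the complex II assembly gene Sdhaf3 (-0.03 ± 0.04, adjusted p = 0.942). In Fischer and Sprague Dawley 0 of the 11 were called (0 at an unadjusted p under 0.05), where 0% and 0.0171% of all probe sets were called, with medians of -0.05 and -0.02. A Lyrm1 pseudogene, Lyrm1-ps1, is annotated on chromosome 5, and whether the Lyrm1 probe set also reads it is not known here.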

How the data were processed

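Each rat's hippocampal RNA was hybridised to 1 array, and precision is limited by their number. The authors deposited log2 values per probe set; RMA and Partek are named in the submitters' processing notes, and versions and any batch correction are not given in the sources used here. Values were used as deposited. Of 29214 probe sets, 15310 had 1 gene symbol, 323 several and 13581 none.

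Group means were fitted per strain with limma 3.58.1 in R 4.3.3, with two-sided tests, Benjamini-Hochberg adjustment over all probe sets and calls at an adjusted p under 0.05. Strain contrasts came from 1 fit of all arrays. Errors after ± are SE for differences and SD where stated. Associations and correlations used deviations from group means, with 1e+05 resamples for permutation tests. The fit was tested on simulated data. Tables and figures were made with Python 3.11.15, pandas 2.3.3 and matplotlib 3.10.9.

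Members and lists were chosen with earlier results of these data known. Named besides the members were the 6 protein-coding genes on each side of the pair in the annotation's order with a single-symbol probe set, up to 4 genes of smallest p per list, and the 5 genes most alike; Bscl2, Plin2 and Tdo2 were named outside that rule, after their values were seen. Alternatives were a quantile normalization, a filter on dim probe sets, array weights, 1 fit of all arrays, label numbers as a block, a choroid plexus covariate, and left-out arrays. Fits within lower or upper label numbers, without the 2 arrays that stood apart, and contrasts within single groups were chosen after seeing the data.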

Additional observations from a re-analysis of the deposited data

Results flagged for a closer look

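In 4 of 58 tests of a group of 4 animals, the highest or lowest animal stood apart: its gap to the nearest of the other 3, divided by the whole range, was above Dixon's 95% critical value for 4 samples. Chance gives about 1 in 20 such groups. All 4 concerned Ldaf1. In Long Evans perinatal 250 ppm females, replicate 1 was at 9.07 and the others at 8.59 to 8.67 (0.841 of the range). In Long Evans perinatal 750 ppm females, replicate 1 was at 8.65 and the others at 9.20 to 9.25 (0.916). In Sprague Dawley perinatal 750 ppm females, replicate 1 was at 9.08 and the others at 9.42 to 9.48 (0.858). In Fischer male controls, replicate 2 was at 9.39 and the others at 9.14 to 9.18 (0.840).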

How the results depend on the processing

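Of 305 values under other settings, 276 kept their direction and, where a test was made, their side of the threshold. The Long Evans mean lead differences had no test and counted as kept when they moved by less than the within-group SD. A result that was not called and stayed so also counted as kept. The cause of the other changes was not tested. The Long Evans mean lead difference stayed between 0.70 and 0.74 for Ldaf1 and at 0.27 for Lyrm1, and between 0.68 and 0.73 and 0.24 and 0.30 when 1 animal was left out. Estimates that changed sign with label numbers as a block were the Lyrm1 slope on Ldaf1 in Fischer (-0.0907), the Sprague Dawley Lyrm1 lead mean (0.0015) and the Fischer r (-0.11). With lower label numbers only, they were the Fischer Lyrm1 lead mean (0.0148), dose (-0.00466) and period (0.00874) differences, the Long Evans dose differences of Ldaf1 (-0.0711) and Lyrm1 (-0.0156), the Sprague Dawley Ldaf1 period difference (0.00574) and the r of the higher Long Evans set (-0.0177). With upper label numbers only, they were the Fischer Ldaf1 period difference (-0.0110), the Long Evans Lyrm1 period difference (-0.00116), the Sprague Dawley Lyrm1 lead mean (0.0265) and period difference (0.0225), and the Fischer r (-0.40). Quantile normalization turned the Sprague Dawley Lyrm1 sex difference (0.000748), and array weights the Sprague Dawley minus Fischer difference of the Lyrm1 lead mean (-0.00975).

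The Long Evans sex difference of Ldaf1 passed the threshold in 1 fit of all arrays (-0.20) and with array weights (-0.21). That of Lyrm1 at perinatal 250 ppm passed with quantile normalization (-0.35), the filter on dim probe sets (-0.32), the choroid plexus covariate (-0.33) and without the 2 arrays that stood apart (-0.37). The Ldaf1 difference there no longer passed with lower (-0.77) or upper (-0.75) label numbers only. The Fischer r no longer passed within lower label numbers (0.30), nor did the Sprague Dawley r with the block (0.20) and within lower (0.50) or upper (0.23) numbers.

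With 1 animal left out, signs changed for the Fischer Ldaf1 lead mean (-0.00863 to 0.0519), Fischer Lyrm1 dose (-0.00992 to 0.0279), Fischer period differences of Ldaf1 (-0.00561 to 0.0329) and Lyrm1 (-0.0184 to 0.0178), Long Evans Ldaf1 dose (-0.00722 to 0.0506), Sprague Dawley Lyrm1 lead mean (-0.0246 to 0.00711), Sprague Dawley Ldaf1 dose (-0.00434 to 0.0362) and Sprague Dawley Lyrm1 period (-0.0223 to 0.00224). The Lyrm1 sex difference at Long Evans perinatal 250 ppm ran from -0.37 to -0.28, and 7 of 40 omissions brought it past the threshold. No paired analysis was possible because the labels give no replicate numbers shared between groups.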
